A study of Mus musculus with 4 samples.

Results

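The genes described here are 10 members of the fibroblast growth factor (FGF) and ERK pathway, measured by 14 probes, out of 36039 gene names and 55681 probes on the array. They were chosen by name, as every probe whose gene name in the scanner files was Fgf4, Fgfr1, Fgfr2, Dusp4, Dusp6, Spry2, Spry4, Etv4, Etv5 or Egr1. The first 3 are the ligand and receptors, and the other 7 are genes that ERK signalling induces, most of which feed back on it. All 14 probes were well above background on all 4 arrays, so every member could be compared in every group.

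RNA came from the mouse embryonic stem (ES) cell line E14Tg2A, of strain 129/Ola. The ES group was taken at day 0 from cells kept on gelatin in serum with leukaemia inhibitory factor (LIF). The ELA group, for epiblast-like aggregates, was taken after 2 days as floating aggregates in defined minimal medium with N2 and B27 supplements, without added serum or LIF. The AZA group was the same aggregates grown with 50 nM 5-azacytidine, an inhibitor of DNA methyltransferases, and the CHQ group was the same aggregates grown with 100 µM 5-carboxy-8-hydroxyquinoline, an inhibitor of lysine demethylases. Each group was 1 array holding a pool of RNA from 3 experiments of this single line, so no spread between cultures was measured and no p-value is given. An array of a knockdown was not analysed here.

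FGF ligands bind receptor tyrosine kinases at the cell surface and, through the adaptor FRS2, switch on RAS, RAF, MEK and the kinases ERK1 and ERK2. ES cells make their own FGF4, and FGF4 acting through ERK is known to move them from the naive state toward readiness to differentiate. ERK activity induces its own inhibitors, among them Sprouty proteins, which act between the receptor and RAF, and dual-specificity phosphatases, which remove the activating phosphates from ERK. It also induces transcription factors such as ETV4, ETV5 and EGR1, so transcripts of these genes are widely used as a readout of the pathway.

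The receptors were read by more than 1 probe, and these probes gave different values, so their sequences are shown first. Fgfr1 had 3 probes of 60 bases on chromosome 8 of mouse build mm9, all on the plus strand. Probe 1, the brightest, lay at chr8:26685072-26685131, probe 2 lay upstream at chr8:26684061-26684120, and probe 3 lay downstream at chr8:26685820-26685879. Probe 2, the one nearest the start of the gene, is shown whole, and the first 30 bases are shown of the others.
Fgfr1 probe 1: gagacgcccagggtagcatccgttgctata
Fgfr1 probe 2: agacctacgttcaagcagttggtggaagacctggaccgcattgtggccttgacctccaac
Fgfr1 probe 3: agccttagagggtttgtttttgttttttgt
Over its full length probe 3 was 90.0% T and G, against 35.0% for probe 1 and 48.3% for probe 2. The 2 Fgfr2 probes, at chr7:137307473-137307532 and chr7:137307455-137307514 on the minus strand, shared 42 of their 60 bases. The 18 bases that each had alone are in capitals below, beside the first or last 12 of the shared bases.
Fgfr2 probe 1, its first 30 bases: ATGCCTTATGAACCCTGTctgcctcagtat
Fgfr2 probe 2, its last 30 bases: gttaaaacatgaGTGAATGTGTCTTCCTGT

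Since one treatment acts on DNA methylation, which in mammals falls mostly on the C of CG dinucleotides, the RefSeq promoter windows of members that differed 2-fold or more between AZA and ELA are shown with each CG in capitals. RefSeq windows (build GRCm38.p6) were used here for 5 of the 10 members (Fgf4, Fgfr2, Dusp6, Spry2 and Etv5), and 4 of these differed that far. Each window holds the 250 bases before the annotated start. Fgf4 is at chr7:144861136-144861385 on the plus strand. On the minus strand, Etv5 is at chr16:22439571-22439820 (the first of 2 annotated starts), Fgfr2 at chr7:130266809-130267058 and Spry2 at chr14:105896820-105897069.
Fgf4: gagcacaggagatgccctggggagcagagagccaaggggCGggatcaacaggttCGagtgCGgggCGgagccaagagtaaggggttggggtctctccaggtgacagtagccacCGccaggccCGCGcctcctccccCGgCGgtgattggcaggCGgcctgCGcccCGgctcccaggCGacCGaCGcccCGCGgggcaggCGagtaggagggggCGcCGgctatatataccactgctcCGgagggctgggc
Etv5: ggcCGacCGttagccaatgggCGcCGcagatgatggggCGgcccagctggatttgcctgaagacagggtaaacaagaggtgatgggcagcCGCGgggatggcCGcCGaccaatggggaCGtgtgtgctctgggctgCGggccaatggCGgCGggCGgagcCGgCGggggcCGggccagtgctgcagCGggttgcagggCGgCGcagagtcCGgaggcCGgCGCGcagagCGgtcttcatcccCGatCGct
Fgfr2: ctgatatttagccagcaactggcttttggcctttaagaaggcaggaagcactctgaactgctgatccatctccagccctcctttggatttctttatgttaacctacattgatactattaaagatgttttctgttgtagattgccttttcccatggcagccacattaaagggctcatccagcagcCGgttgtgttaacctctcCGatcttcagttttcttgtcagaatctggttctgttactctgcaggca
Spry2: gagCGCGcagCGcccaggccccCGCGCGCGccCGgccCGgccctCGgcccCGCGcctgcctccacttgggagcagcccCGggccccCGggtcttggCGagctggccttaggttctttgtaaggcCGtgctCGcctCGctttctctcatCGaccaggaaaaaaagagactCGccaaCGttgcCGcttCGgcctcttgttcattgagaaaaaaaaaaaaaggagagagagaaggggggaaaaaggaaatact
The Etv5 window held 27 CG dinucleotides, Spry2 23 and Fgf4 21, while Fgfr2 held 2. Over all 32851 windows of this length the median was 6, and at least as many were found in 8.56% of windows for Etv5, 13.3% for Spry2, 16.4% for Fgf4 and 81.2% for Fgfr2. Dusp6, which differed little between AZA and ELA, held 16. The CG-rich windows belonged to members that were higher with AZA (Fgf4 and Etv5) and to one that was lower (Spry2). A link between CG content and these differences was not tested. The letters CCGGAA, a short form of the site bound by ETS factors such as ETV4 and ETV5, were searched on both strands and were in no window of these 5 genes, the second Etv5 start included, against 12.0% of all windows. Methylation was not measured on these arrays.

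All levels below are log2 intensities after background correction and quantile normalisation over the 4 arrays, and all differences are between such levels, so that a difference of 1 is 2-fold. A gene counted as higher or lower when its brightest probe differed by 1 or more, had a mean level of 7.5 or more over both arrays, and stood well above background on either of them. The only error the data hold is that of probes printed in repeated spots on 1 array, whose pooled SD was 0.13 to 0.16, which gives a difference between 2 arrays an SD of 0.19 to 0.22. This is technical error and leaves out the spread between cultures. The order of a treated array and ES was less firm than a difference from ELA, since 9 of the 20 such differences took the other sign in at least 1 other way of processing. Some of these ways also moved the median of all detected genes. When arrays were scaled to spike-in probes, it was -0.84 in AZA minus ES and -0.99 in CHQ minus ES. With the 75th percentile of the processed signal it was -0.22 and -0.27. ES and ELA were on 1 slide and AZA and CHQ on the other, so in a treated group against ELA or ES the treatment and the slide cannot be told apart. Local background differed between the slides, with medians of 59 (ES) and 77 (ELA) on the first and 14 (AZA) and 13 (CHQ) on the second. Gene spots well above background were 60.6% in ES, 55.1% in ELA, 69.1% under AZA and 69.2% under CHQ, and none was saturated. Gene spots with an outlier flag numbered 188, 523, 307 and 308 in the same order. The ELA array thus had the highest background, the lowest share above it and the most outlier flags. Fewer cells of a type and less RNA per cell cannot be told apart in these samples.

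**Figure D1:**
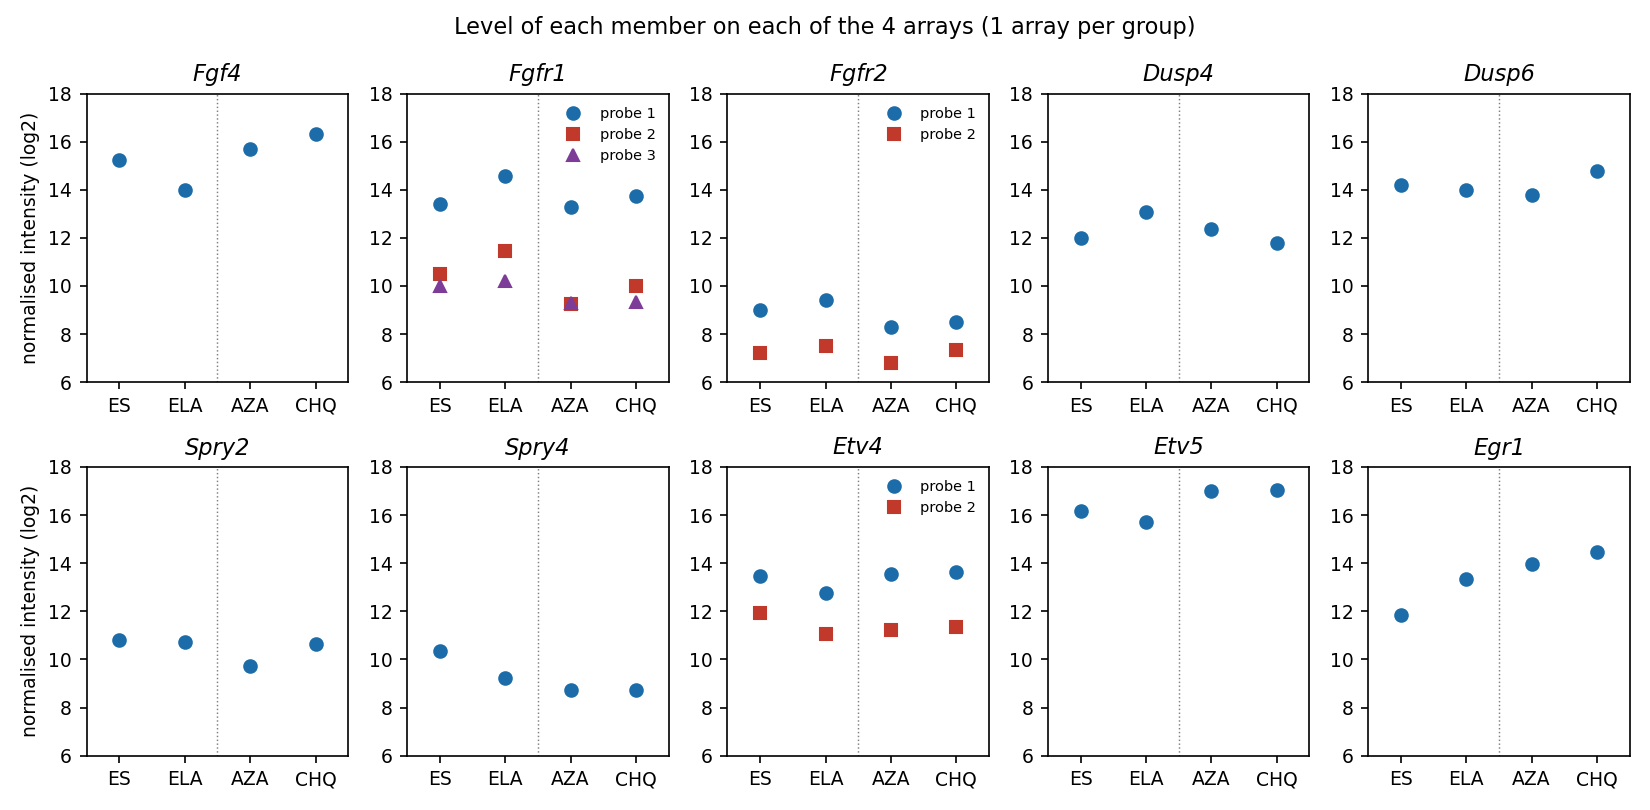
Normalised intensity (log2, vertical axis) of each probe of the 10 members on the ES, ELA, AZA and CHQ arrays (horizontal axis), with 1 array per group and a dotted line between the 2 slides. Fgf4 was lowest on the ELA array at 13.98 and highest on CHQ at 16.32. With spike-in scaling CHQ minus ES was -0.30 for Fgf4 and -0.99 for the median of all detected genes. Fgfr1 was highest on ELA with each of its probes, and Egr1 ran from 11.86 on ES to 14.48 on CHQ.

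Fgf4, the ligand that ES cells make themselves, was read by 1 probe at chr7:152051089-152051148. Its level was 15.24 in ES, 13.98 in ELA, 15.70 under AZA and 16.32 under CHQ. ELA was the lowest array. Both treated arrays lay above ES here, but with spike-in scaling both lay below it, by 0.57 for AZA and 0.30 for CHQ. With the 75th percentile scaling AZA minus ES was -0.04. These scalings also moved the median of all detected genes. Relative to that median, AZA minus ES was 0.28 and CHQ minus ES 0.69 with spike-in scaling. AZA minus ES was 0.18 with the 75th percentile scaling. ELA was 2.39-fold lower than ES (difference -1.26). AZA was 3.28-fold higher than ELA (1.72) and CHQ 5.06-fold higher (2.34), which was the largest difference of any member in the 4 comparisons. CHQ was 0.62 above AZA on the same slide, and against ES the differences were 0.46 for AZA and 1.08 for CHQ. Before normalisation its mean intensity was 49357 in ES, 15344 in ELA, 48673 under AZA and 65898 under CHQ.

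The receptors were highest in ELA, where the ligand was lowest, except that spike-in scaling put Fgfr2 higher in ES. Fgfr1, the main FGF receptor of ES cells and of the epiblast, had levels of 13.42 in ES, 14.59 in ELA, 13.26 under AZA and 13.74 under CHQ on its brightest probe. ELA was the highest array, and AZA and ES differed by -0.15, less than the spot error, though by -1.25 and -0.71 on the other probes. ELA was 2.25-fold higher than ES (1.17), and AZA was lower than ELA by a larger step (-1.32). With spike-in scaling ELA minus ES was 0.52 and no longer met the rule, though relative to the median of all detected genes it was 1.03. CHQ was 0.85 below ELA, short of the 2-fold rule.

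The other probes of Fgfr1 set the size of the differences between ELA and the other arrays but not their direction. CHQ minus ES, by contrast, was 0.32 on probe 1, -0.52 on probe 2 and -0.69 on probe 3. Probe 2 read 10.51 in ES, 11.47 in ELA, 9.27 under AZA and 10.00 under CHQ, so that ELA minus ES was 0.95, AZA minus ELA -2.20 and CHQ minus ELA -1.47. Probe 3, the T-rich and G-rich one, read 10.02, 10.20, 9.31 and 9.32 in the same order, with an ELA minus ES difference of 0.18, inside the spot error, and differences of -0.89 and -0.88 for the treatments. With the mean of the 3 probes, ELA minus ES was 0.77 and no longer met the rule, while CHQ minus ELA was -1.07 and did.

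Fgfr2, the receptor best known from extraembryonic lineages of the early embryo, had levels of 8.98 in ES, 9.42 in ELA, 8.29 under AZA and 8.50 under CHQ on probe 1. Both treated arrays were below both untreated arrays on this probe. AZA was 2.18-fold lower than ELA (-1.13), CHQ was 0.91 lower, and ELA was 0.43 above ES, a sign that turned to -0.12 when arrays were scaled to spike-in probes. The median of all detected genes was then -0.51, and relative to it ELA minus ES was 0.39.

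Fgfr2 probe 2 was printed in 10 spots per array and gives the only direct view of measurement error within a member. It was dim, with a mean of 7.22 over 10 spots in ES (range 7.10 to 7.31), 7.52 over 10 spots in ELA (7.04 to 8.29), 6.79 over 9 spots with AZA (6.66 to 6.85) and 7.32 over 9 spots with CHQ (7.12 to 7.65). Single spots had an SD of 0.068, 0.34, 0.059 and 0.16 on these arrays. Of the spots kept, those of AZA lay below every spot of the other 3 arrays, whereas those of CHQ lay inside the range of the ELA spots. The 1 AZA spot left out for its outlier flag read 8.12, above every spot kept on the ES and CHQ arrays, and the 1 CHQ spot left out read 7.71. AZA minus ELA was -0.72 on this probe, CHQ minus ELA was -0.19 and CHQ minus ES was 0.10, against -1.13, -0.91 and -0.48 on probe 1, which shares 42 of its bases. Over both probes the AZA difference was -0.92 and no longer met the rule.

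**Figure D2:**
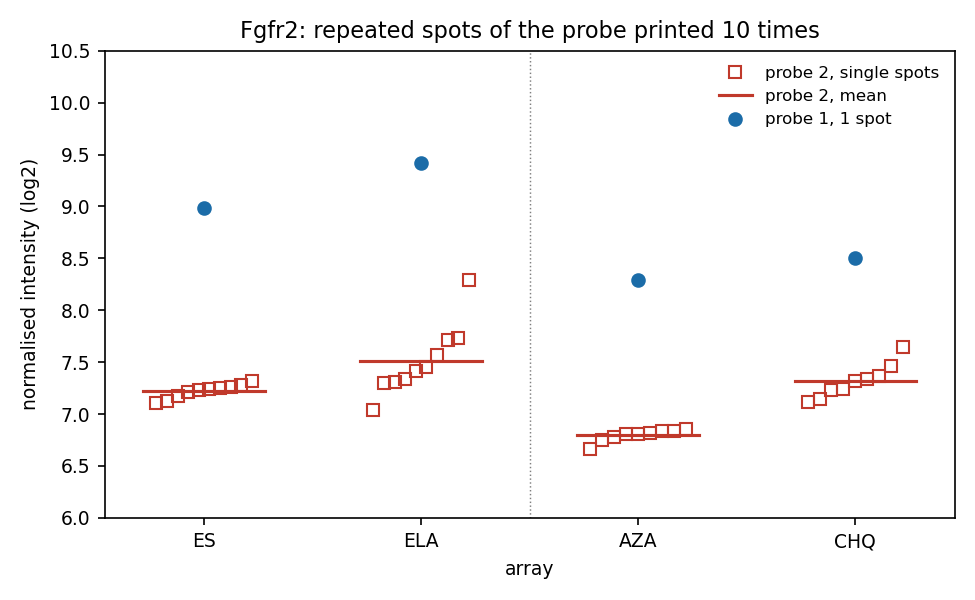
Normalised intensity (log2, vertical axis) of Fgfr2 on each array, with single spots of probe 2 as open squares in order of intensity, their mean as a line, and the 1 spot of probe 1 as a filled circle; the dotted line parts the 2 slides. The AZA spots drawn, 6.66 to 6.85, lie below all others drawn, the ELA spots spread from 7.04 to 8.29, and an AZA spot at 8.12 and a CHQ spot at 7.71 with outlier flags are not drawn.

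Among the ERK-induced genes, the phosphatases differed from each other. Dusp4, a nuclear phosphatase of ERK and other MAP kinases, is at chr8:35882045-35882104. Its level was 12.01 in ES, 13.07 in ELA, 12.38 under AZA and 11.78 under CHQ. ELA was the highest array, 2.09-fold above ES (1.06), and CHQ was 2.45-fold below ELA (-1.29). With spike-in scaling ELA minus ES was 0.45 and no longer met the rule, and relative to the median of all detected genes it was 0.97. AZA was 0.69 below ELA, and CHQ was 0.60 below AZA on the shared slide.

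Dusp6, the cytoplasmic phosphatase specific to ERK and a common readout of FGF signalling, is at chr10:98729985-98730044. Its level was 14.19 in ES, 14.01 in ELA, 13.78 under AZA and 14.78 under CHQ. The first 3 arrays followed each other within about the spot error, with ELA minus ES at -0.19 and AZA minus ELA at -0.22. With spike-in scaling ELA minus ES was -0.93, or -0.41 relative to the median of all detected genes under that scaling. CHQ stood above the first 3 arrays, by 0.77 against ELA and 0.995 against AZA on the same slide, just short of the 2-fold rule. CHQ minus ELA was 0.31 with the 75th percentile scaling and 0.29 with spike-in scaling. Relative to the medians of all detected genes under these scalings (-0.21 and -0.51), it was 0.52 and 0.80. Its place above ES (0.58) depended on the scaling, since CHQ minus ES was 0.035 with the 75th percentile scaling and -0.63 with spike-in scaling. Relative to the medians of all detected genes under these scalings (-0.27 and -0.99), CHQ minus ES was 0.30 and 0.36.

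The Sprouty genes encode inhibitors that act upstream of ERK. Spry2, at chr14:106291845-106291904, had levels of 10.83 in ES, 10.74 in ELA, 9.73 under AZA and 10.65 under CHQ. ES, ELA and CHQ lay within the spot error of their neighbours, and AZA was alone below them. With spike-in scaling ELA minus ES was -0.69 and CHQ minus ES -0.94, where the medians of all detected genes were -0.52 and -0.99. AZA was 2.01-fold lower than ELA (-1.01, the smallest difference that met the rule), and CHQ was 0.92 above AZA on the same slide. Spry4, at chr18:38745923-38745982, had levels of 10.36 in ES, 9.22 in ELA, 8.74 under AZA and 8.71 under CHQ. ES was the highest array and the treated arrays did not differ beyond the spot error (-0.02). ELA was 2.22-fold below ES (-1.15), and the treated arrays were a further 0.48 and 0.50 below ELA.

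Etv4 and Etv5 encode ETS factors of the PEA3 family, which FGF signalling induces in many tissues. Etv5, at chr16:22381387-22381446, had levels of 16.18 in ES, 15.72 in ELA, 16.99 under AZA and 17.06 under CHQ. ELA was the lowest array and the treated arrays were the highest, with a difference between them of 0.08, inside the spot error. With spike-in scaling ES was the highest array, and AZA minus ES was -0.37 and CHQ minus ES -0.62. Relative to the medians of all detected genes in these 2 differences (-0.84 and -0.99), they were 0.47 and 0.37. AZA was 2.41-fold above ELA (1.27) and CHQ 2.54-fold above it (1.35), while ELA minus ES was -0.47. Its unnormalised intensities were 98706 in ES, 55135 in ELA, 111375 under AZA and 105776 under CHQ. Both treatment calls depended on the scaling, since with each array set to the 75th percentile of its processed signal the differences were 0.83 and 0.70, and with spike-in scaling 0.84 and 0.59. Under these scalings the median difference from ELA over all detected genes was between -0.17 and -0.51. Relative to that median Etv5 stood at 1.00 (AZA) and 0.91 (CHQ) with the first and at 1.21 and 1.10 with the second.

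Etv4 had 2 probes. The brighter, at chr11:101631057-101631116, read 13.45 in ES, 12.77 in ELA, 13.53 under AZA and 13.63 under CHQ, and ELA was again the lowest array. ELA minus ES was -0.68, and the treated arrays were 0.76 (AZA) and 0.85 (CHQ) above ELA, none of which met the rule. The probe at chr11:101631322-101631381 read 11.95, 11.06, 11.22 and 11.36 in the same order. It had a similar ELA minus ES difference (-0.89) but smaller ones for the treatments (0.16 and 0.29), of which the first was inside the spot error.

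Egr1, an immediate early zinc finger factor induced by ERK and many other stimuli, is at chr18:35024395-35024454. Its level was 11.86 in ES, 13.36 in ELA, 13.96 under AZA and 14.48 under CHQ. The arrays were in the order ES, ELA, AZA, CHQ, with each step above the spot error. ELA was 2.82-fold above ES (1.49), AZA was 0.60 above ELA, and CHQ was 2.18-fold above ELA (1.13). CHQ minus ELA no longer met the rule with the 75th percentile scaling (0.86) or with spike-in scaling (0.71). Relative to the medians of all detected genes under these scalings (-0.21 and -0.51), it was 1.07 and 1.22. Egr1 was the only member for which ELA and both treated arrays were all more than 1 above ES, at 1.49, 2.10 and 2.62; with spike-in scaling these were 0.90, 1.35 and 1.61.

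**Figure D3:**
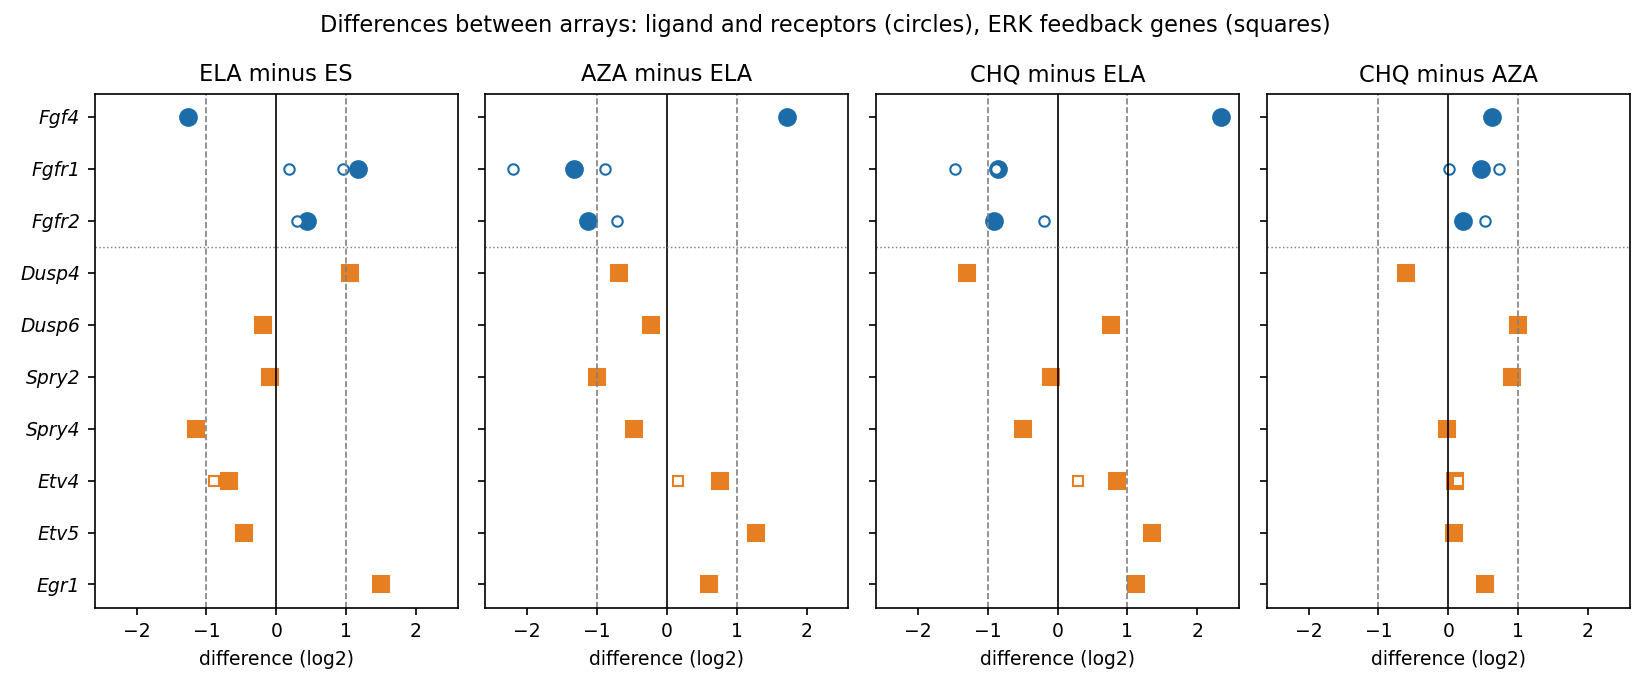
Difference between arrays (log2, horizontal axis) for each member in the 4 comparisons, with ligand and receptors as circles and ERK feedback genes as squares. Large filled symbols are the brightest probe, small open ones the other probes, and dashed lines mark 2-fold; Fgf4 stands at 1.72 and 2.34 above ELA in the treated arrays while Fgfr1 stands at -1.32 and -0.85.

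Between ES and ELA, 5 of the 10 members met the rule. Fgfr1, Dusp4 and Egr1 were higher in ELA, against 4.45% of 18947 genes, and Fgf4 and Spry4 were lower, against 5.59% of them. The median difference of the ligand and receptors was 0.43 and that of the ERK feedback genes -0.19, beside -0.03 over the 28311 genes detected on at least 1 array. Of the 7 feedback genes, 2 were above 0 and 5 below it, so both signs were present among them. Scaling to spike-in probes moved the median of all detected genes to -0.52, that of the ligand and receptors to -0.12 and that of the feedback genes to -0.93, and changed the calls. Over all genes it gave 280 higher and 3757 lower in place of 844 and 1060, and among members 0 higher and 4 lower (Fgf4, Spry4, Etv4 and Etv5). Relative to that shifted median, the 5 members first named kept their sign and 4 of them stayed past 2-fold, with Dusp4 at 0.97. A 1.5-fold limit would have passed 3 members as higher, where it passed 10.7% of all genes tested, and 3 as lower, where it passed 12.2%.

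Between AZA and ELA, Fgf4 and Etv5 were higher, where 14.3% of 19159 genes were, and Fgfr1, Fgfr2 and Spry2 were lower, where 11.4% were. Both receptors were below ELA while the ligand was above it. The medians were -1.13 for the ligand and receptors and -0.22 for the feedback genes, beside -0.02 over all detected genes. Of the feedback genes, 3 were above 0 (Etv4, Etv5 and Egr1) and 4 below (both Dusp and both Spry genes). Spike-in scaling turned the split over all genes from 2731 higher and 2175 lower to 2349 and 2940, and among members left Fgf4 higher and the same 3 lower. It also lowered the median of all detected genes to -0.37. Relative to that, 3 of the 5 members first named stayed past 2-fold (Fgf4 at 1.86, Etv5 at 1.21 and Fgfr1 at -1.18), while Fgfr2 was at -0.84 and Spry2 at -0.69. A 1.5-fold limit would have passed 4 members as higher, where it passed 22.7% of all genes tested, and 4 as lower, where it passed 23.5%.

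Between CHQ and ELA, Fgf4, Etv5 and Egr1 were higher, where 14.8% of 19163 genes were, and Dusp4 was lower, where 11.9% were. The medians were -0.85 for the ligand and receptors and 0.77 for the feedback genes, beside -0.03 over all detected genes. Of the feedback genes, 4 were above 0 (Dusp6, Etv4, Etv5 and Egr1) and 3 below (Dusp4, Spry2 and Spry4). Their median was 0.31 with the 75th percentile scaling and 0.29 with spike-in scaling. This comparison shares the ELA array with the one before, so similar values in both are not separate evidence. With the 75th percentile scaling, 2949 genes were higher and 3686 lower in place of 2829 and 2272, and Fgf4 alone among the members was higher while Fgfr1 and Dusp4 were lower. With spike-in scaling 2071 genes were higher and 4358 lower, and Fgf4 was again the one member higher while Fgfr1, Fgfr2 and Dusp4 were lower. These scalings moved the median of all detected genes to -0.21 and -0.51. Relative to the second, Fgf4 (2.26), Egr1 (1.22), Etv5 (1.10) and Etv4 (1.06) were past 2-fold, Dusp4 was just under it (-0.9998), and Fgfr1 (-0.76) and Fgfr2 (-0.59) were short of it. A 1.5-fold limit would have passed 5 members as higher, where it passed 23.4% of all genes tested, and 3 as lower, where it passed 25.4%.

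CHQ and AZA were on 1 slide, so no difference between slides enters this comparison. No member met the rule, where 5.53% of 19196 genes were higher with CHQ and 4.81% lower. In size, 8 of the 10 members were above 0, from 0.08 for Etv5 to 0.995 for Dusp6, and Dusp4 (-0.60) and Spry4 (-0.02) were below it. Etv4 (0.09) and Etv5 turned negative with spike-in scaling, at -0.09 and -0.25. At a 1.5-fold limit 4 members would have passed, namely Fgf4, Dusp6 and Spry2 as higher, where it passed 12.9% of all genes tested, and Dusp4 as lower, where it passed 12.1%.

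**Figure D4:**
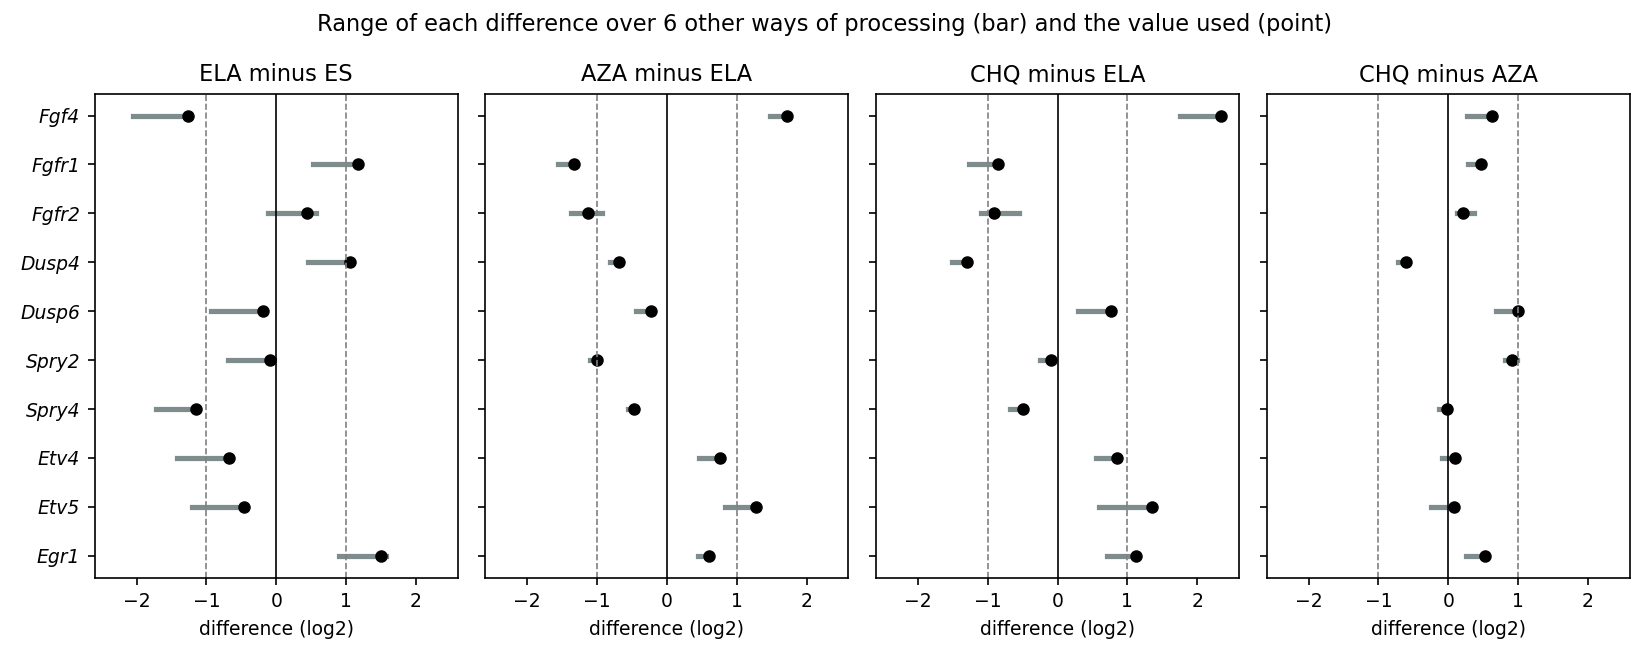
Difference (log2, horizontal axis) of each member in the 4 comparisons, with the value used as a point and, as a bar, its range over 6 other ways of processing; dashed lines mark 2-fold. Bars cross 0 for Fgfr2 in ELA minus ES and for Etv4 and Etv5 in CHQ minus AZA, and the lower end of the Fgf4 bar in CHQ minus ELA is 1.75.

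The pattern of each member over the 4 arrays was compared as the Euclidean distance between levels centred on their own mean. Among the 45 pairs of members the closest were Etv4 and Etv5 (0.62), Fgfr1 and Fgfr2 (0.63), Fgfr2 and Spry2 (0.65), and Fgf4 and Etv5 (0.75). Fgf4 lay 2.56 from Fgfr1 and 2.52 from Fgfr2, and the farthest pair was Spry4 and Egr1 (3.28). Spry2 and Spry4 were 1.11 apart and Dusp4 and Dusp6 1.57, farther than the pairs of Etv and Fgfr genes. Over 13292 other genes with an ordinary symbol and signal well above background on all 4 arrays, the nearest to Fgf4 were Depdc7 (0.11), Sntb2 (0.14) and Fbxw9 (0.14), and the nearest to Dusp6 were Chst7 (0.08), Apoo (0.12) and Zfp36 (0.12). These distances rest on 4 arrays.

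Beyond the members, 72 other pathway genes were listed by role, and all were on the array. Between ES and ELA, 6 were higher and 4 lower of the 53 that passed the filter on low values, beside 4.45% and 5.59% of all genes. The ones higher were the ligands Fgf5, a marker of the primed epiblast (11.61 in ES and 14.47 in ELA, 2.86), and Fgf9 (2.22), and 4 ERK-induced genes, of which the immediate early factors Egr2 (2.92), Egr4 (2.47) and Fosb (2.45) were furthest from 0. The ones lower were the adaptor Gab1 (-1.05), the phosphatase Dusp9 (-1.17) and 2 ERK-induced genes. None of 3 further receptors and coreceptors that passed the filter met the rule, nor did any of the other 16 cascade genes that did.

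With AZA, 6 of 53 pathway genes were higher than ELA and 9 lower, beside 14.3% and 11.4% of all genes. The receptor Fgfr4 read 8.48 in ES, 8.87 in ELA, 11.83 under AZA and 11.14 under CHQ, and so ran opposite to Fgfr1 and Fgfr2 in the treated arrays (2.96 and 2.28 above ELA). Its coreceptor Klb was not well above background in ELA and was at least 7.17-fold higher with AZA. The ligand Fgf18 was higher (1.83), Fgf1 was at least 3.52-fold higher over an ELA level not well above background, though its second probe went the other way (-0.51), and Fgf5 was lower (-2.54), as was 1 other ligand. Of ERK-induced genes 5 were lower and 1 higher, with Egr4 (-2.99), Fosb (-2.37) and Egr2 (-1.74) furthest from 0, where Egr1 was above ELA by 0.60. In the cascade, Mapk3, which encodes ERK1, was lower (-1.33), as was Ptpn11 (14.65 in ELA and 13.65 under AZA), and the adaptor Frs3 was higher (1.74). No inhibitor among the 10 that passed the filter met the rule; Spred3, named here after its values were seen, differed by -1.87 but had a mean level just under 7.5.

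With CHQ, 13 of 54 were higher than ELA and 6 lower, beside 14.8% and 11.9% of all genes. The inhibitors Dusp2 (1.64) and Dusp1 (1.56) were higher and Spred3 (-1.58) was lower. Of ERK-induced genes 4 were higher and 2 lower, with Fosl1 (2.64), Fos (2.42) and Srf (-1.71) furthest from 0. The ligands Fgf18 (3.51) and Fgf1 (at least 6.26-fold, with its second probe at -0.56) were higher, and Fgf5 was lower (-1.15). Mapk3 was again lower (-1.81) and Frs3 higher (2.00), Araf was higher on its brightest probe (1.64) but ranged down to 0.30 over its 3 probes, and the decoy receptor Fgfrl1 was lower (-1.71).

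Against AZA on the same slide, 10 of 54 were higher with CHQ and 2 lower, beside 5.53% and 4.81% of all genes. The higher ones included Fosb (2.73), Egr2 (2.55), Fos (1.66), Dusp1 (1.87) and Spred1 (1.48), the kinase gene Braf (1.01, with 0.79 on its other probe), and the ligands Fgf18 (1.69) and Fgf5 (1.39). The lower ones were Fgfrl1 (-1.34) and Klb (-1.32). The median over the 13 ERK-induced genes that passed the filter was 0.72, beside -0.03 over all detected genes and 0.09 for the 7 feedback genes above.

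**Figure D5:**
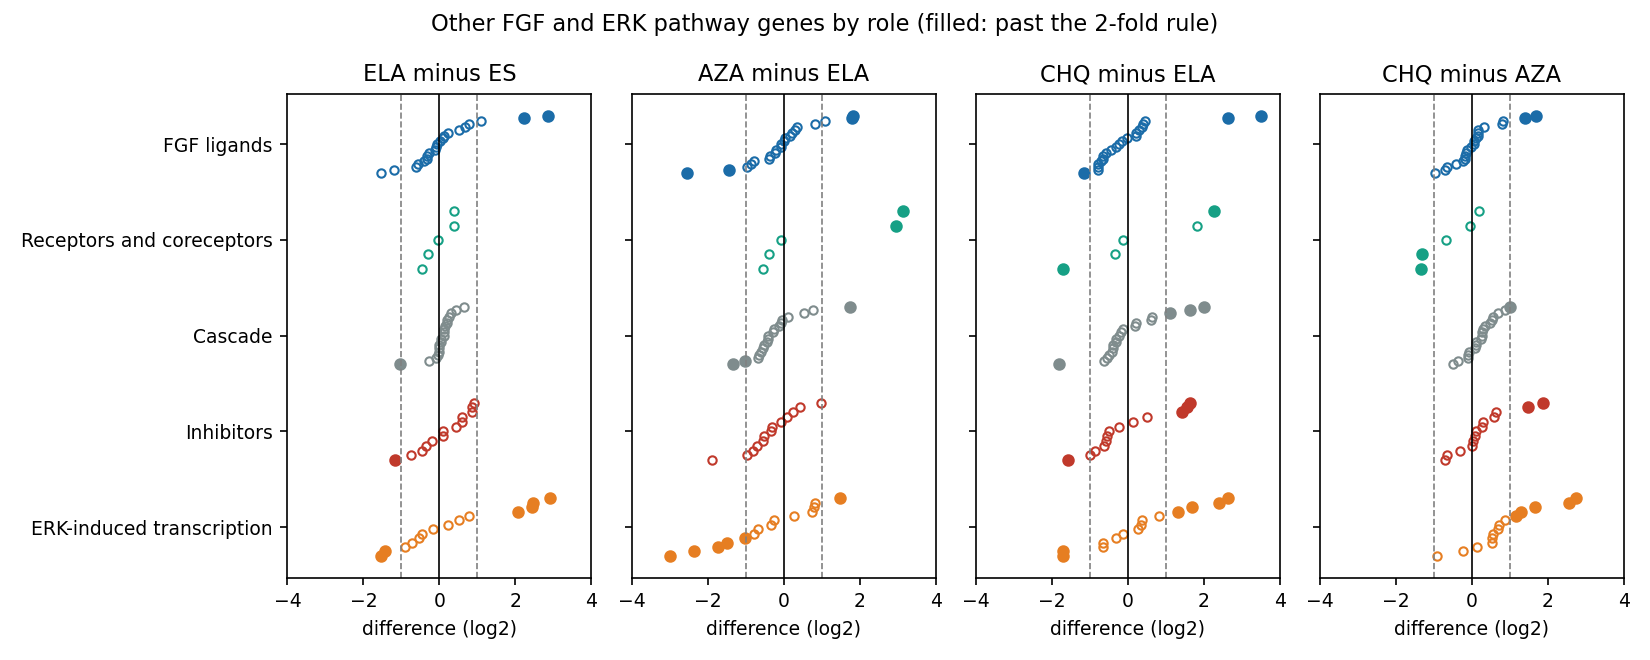
Difference (log2, horizontal axis) of 72 other FGF and ERK pathway genes by role in the 4 comparisons, with 1 point per gene in order of size, filled where the gene met the 2-fold rule, and dashed lines at 2-fold. ERK-induced genes spread from -1.54 to 2.92 among those that passed the filter in ELA minus ES and reach 2.73 in CHQ minus AZA.

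The groups were checked against cell type markers. All 6 pluripotency markers (Pou5f1, Sox2, Nanog, Zfp42, Esrrb and Klf4) were well above background on each array, and their summed linear intensity was 170086 in ES, 44543 in ELA, 204855 under AZA and 86994 under CHQ. Members of this list differed, in that Pou5f1 was lower under AZA (14.05) and CHQ (13.56) than in ELA (14.46), and Nanog read 12.54 under CHQ and 12.53 in ELA. The 3 primed epiblast markers (Fgf5, Otx2 and Pou3f1) summed to 63792, 118986, 90659 and 103610. Otx2 was highest under AZA (16.17, against 15.85 in ELA), where Fgf5 (11.94) and Pou3f1 (13.64) were below ELA (14.47 and 15.19). Early neural markers (Sox1, Pax6 and Nes) summed to 7037, 12287, 4029 and 5270, mostly from Nes (12.68, 13.52, 11.85 and 12.28). Sox1 read 7.87, 8.18, 7.83 and 7.78. Pax6 read 8.04, 7.91, 6.73 and 6.43 and was not well above background under CHQ. Mesendoderm markers (T, Mixl1 and Gsc) summed to between 298.8 and 401.1. Primitive endoderm markers, whose lineage uses FGF signalling, summed to 344.3, 386.8, 690.9 and 1889. Gata6 read 6.41, 6.69, 8.06 and 9.89 and Sox17 6.37, 6.76, 7.76 and 9.51. Gata4 differed less, at 7.46, 7.45, 7.70 and 7.73, and alone of the 3 was well above background in ES and ELA. Trophoblast markers summed to 6601, 1030, 3980 and 9800, mostly from Tfap2c, with Elf5 between 5.90 and 6.53. Cdx2 read 6.85, 6.38, 6.14 and 6.17 in the same order and was well above background only in ES. Fibroblast markers summed to 5144, 13239, 7738 and 3022, mostly from Thy1, the highest at 13.58 in ELA. Col1a2 was also highest in ELA (8.73 in ES, 9.56 in ELA, 7.69 under AZA, 7.57 under CHQ), while Col1a1 was lowest there (8.61, 7.71, 9.02 and 8.51). These lists moved with the groups, and their part in the members' differences was not tested.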

How the data were processed

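Per the file headers, the authors labelled the RNA with Cy3, hybridised it to single-colour Agilent arrays and read the scans with Agilent Feature Extraction 10.7.3.1 (the submitters' processing notes name 9.1). The deposited scanner files hold the mean intensity and the local background intensity of each spot, not normalised between arrays. The authors also deposited a table of log2 values, background-corrected and quantile-normalised with limma, which correlated at 0.999 with scanner values corrected without an offset. From the scanner files, intensities were corrected by normexp with an offset of 50 and quantile-normalised over 4 arrays (limma 3.58.1, R 4.3.3). Control spots and spots with an outlier flag were then left out, and log2 values of repeated spots were averaged. Of 55681 probes, 559 had no usable spot on at least 1 array and were left out. Probes were named through their RefSeq accession (GRCm38.p6, names only) where it was found, for 26367, and otherwise by the array's own name. The brightest probe over the 4 arrays stood for a gene. Probe coordinates are the deposited ones (mm9).

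Groups were taken from the sample labels. ELA was compared with ES, each treatment with ELA, and CHQ with AZA. The size thresholds follow the study's methods, and its p-value threshold could not be applied to 1 array per group, whose number limits the precision. The text names the members with every probe, and the other pathway genes that met the rule, at most the 3 furthest from 0 per role and comparison, except where the text says otherwise. The members, lists and alternatives were chosen with earlier results of these data known. The alternatives were no background correction, normexp without an offset, the 75th percentile of the processed signal, spike-in scaling (7 probes), the deposited table, the mean over probes, no filter on dim probes, and a 1.5-fold limit. The normalisation was tested on simulated data.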

Additional observations from a re-analysis of the deposited data

How the results depend on the processing

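Each of the 40 single-member differences was recomputed in 6 other ways. The 14 that met the 2-fold rule kept their sign in all 6, as their size made likely. In ELA minus ES, Fgfr1, Dusp4 and Egr1 fell short of 2-fold in at least 1 way. So did Fgfr2 and Etv5 in AZA minus ELA, and Etv5 and Egr1 in CHQ minus ELA. Etv4 and Etv5 in ELA minus ES, and Fgfr1 and Fgfr2 in CHQ minus ELA, met the rule only in other ways. Of the other 26 differences, 3 took the other sign in at least 1 way (Fgfr2 in ELA minus ES, Etv4 and Etv5 in CHQ minus AZA). Of 20 differences between a treated array and ES, 9 took the other sign in at least 1. Scaling to spike-in probes moved the median of the ligand and receptors from 0.43 to -0.12 in ELA minus ES, from -0.85 to -1.10 in CHQ minus ELA and from 0.47 to 0.27 in CHQ minus AZA, and that of the ERK feedback genes from -0.19 to -0.93 in ELA minus ES and from 0.77 to 0.29 in CHQ minus ELA. With the 75th percentile of the processed signal the median of the feedback genes was -0.45 in AZA minus ELA and 0.31 in CHQ minus ELA. The deposited table gave a median of -1.35 for the ligand and receptors in AZA minus ELA, and the mean over all probes gave -0.55 in CHQ minus ELA. A 1.5-fold limit raised the members called from 5 to 6 in ELA minus ES, and to 8 in AZA minus ELA, 8 in CHQ minus ELA and 4 in CHQ minus AZA, beside the shares of all genes given with each comparison. The cause of these moves was not tested, except that a lower limit passes more genes by construction. No paired analysis was possible because each group was 1 array, so no replicate could be left out either. The dim Fgfr2 probe 2, at 6.79 to 7.52, is the member value most limited by signal over background.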

Other observations

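Other probes within 50000 bases of a member's probe included some that differed from it between the arrays and some that ran with it, and those given here were chosen after their values had been seen. Fgf3 and Fgf15 lie next to Fgf4 on chromosome 7, with probes 24422 and 35282 bases from that of Fgf4. Fgf15, a ligand that acts as a hormone, read 10.35 in ES, 9.73 in ELA, 10.02 under AZA and 9.04 under CHQ, so that its CHQ minus ELA difference was -0.69 where that of Fgf4 was 2.34. Fgf3 read 7.28, 6.89, 7.72 and 7.31 in the same order and was well above background on 3 of the 4 arrays. Tnks, a poly(ADP-ribose) polymerase gene 10751 bases from Dusp4 on the other strand, read 9.60, 9.91, 9.20 and 9.71, with the signs of Dusp4 in ELA minus ES (0.31), AZA minus ELA (-0.71) and CHQ minus ELA (-0.20), but the opposite sign in CHQ minus AZA (0.51, against -0.60 for Dusp4).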
